A study of Danio rerio with 4 samples.

Results

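Among the 29029 genes counted in sorted zebrafish olfactory sensory neurons (OSNs), gnrh2 and gnrh3 are the 2 that encode precursors of gonadotropin-releasing hormone (GnRH). They were taken by name. They were chosen because they lay on opposite sides of the comparison between the sorted OSN classes, so their difference between the classes is described here without a test. The OMP libraries came from embryos carrying the OMP:RFP transgene, whose OMP promoter drives RFP in ciliated OSNs, and the TRPC2 libraries from embryos carrying TRPC2:Venus, whose TRPC2 promoter drives Venus in microvillous OSNs. There were 2 libraries of each class, all of the Tubingen/TLF background at 48 hpf. Cells from dissected olfactory epithelia were pooled and sorted for RFP only or Venus only. RNA was amplified by T7 transcription in 1 round for OMP and 2 rounds for TRPC2, which also came from fewer cells, so class, cell number and amplification cannot be told apart.

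GnRH peptides are short secreted peptides that are cut from a longer precursor and act on G protein-coupled GnRH receptors. In fish, gnrh3 is known for neurons of the terminal nerve, which arise beside the olfactory epithelium and lie along the olfactory nerve and bulb, and for forebrain neurons that reach the pituitary. gnrh2 is known for a small group of neurons in the midbrain. Neither gene is a usual marker of ciliated or microvillous OSNs.

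The libraries held 68098416 and 84599818 gene counts in OMP and 49483362 and 60189797 in TRPC2. Genes with a read made up 87.6% and 88.0% of all genes in OMP and 61.6% and 62.0% in TRPC2. Markers of each class summed higher in the class of that label. The summed level of 6 ciliated OSN genes, ompa and ompb among them, was 488 and 609 RPM (the authors' read counts scaled to a common library total) in OMP, against 56.5 and 50.9 RPM in TRPC2. That of 6 microvillous OSN genes, trpc2a and trpc2b among them, was 769 and 725 RPM in OMP, against 2344 and 1714 RPM in TRPC2. All 6 ciliated genes were higher in both OMP libraries, and 3 of the 6 microvillous genes in both TRPC2 libraries. The trpc2a gene went against this in the second TRPC2 library, at 0.21 RPM, where OMP had 1.44 and 1.56 RPM. gnai1 was higher in both OMP libraries, at 75.4 and 72.4 RPM against 47.7 and 61.25 RPM in TRPC2. The classes overlapped for gnao1a, at 275 and 216 RPM in OMP and 304 and 271 RPM in TRPC2. Most of the microvillous sum in TRPC2 was s100z, at 1482 and 993 RPM. Genes of red blood cells summed to 11454 and 116398 RPM in OMP and 0.30 and 5.93 RPM in TRPC2, and pigment cell genes to 47.7 and 77.5 RPM in OMP and 1387 and 4774 RPM in TRPC2. Most of the pigment sum in TRPC2 was the gene gch2, at 1279 and 4521 RPM. Of the 13 pigment genes, 6 were higher in both TRPC2 libraries and 3 in both OMP libraries. In these pools, fewer cells of a type and less RNA per cell cannot be told apart.

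gnrh3 reads were abundant in both OMP libraries and absent from both TRPC2 libraries. It had 81053 and 33369 reads in the OMP libraries, or 750 and 300 RPM, against 0 reads in each TRPC2 library. A count of 0 allows up to 3 reads, which is 0.0339 and 0.0356 RPM in the TRPC2 libraries and covers counting error only. The OMP mean was 525 ± 319 RPM (SD, n = 2), at least 15096-fold higher than the mean of these limits. The first OMP library was 2.50 times the second, and the lower of them was still 8419 times the higher limit in TRPC2.

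No read in either TRPC2 library was the case for 8419 of 29029 genes, which is 29% of all genes, so a count of 0 there was common. Those genes were mostly little read in OMP as well, with a median of 0.045 RPM. gnrh3 was set apart within this group by its number of OMP reads, which are not corrected for gene length. Only 3 of the genes without a TRPC2 read had more reads than gnrh3 in both OMP libraries, and these were the globin genes hbbe1.1, hbae3 and hbbe1.2. By mean RPM in OMP gnrh3 was the ninth of them. The other 8 were those globins with hbbe2 and hbbe3, the heme synthesis gene alas2, the carbonic anhydrase gene cahz and si:ch211-5k11.2. All 8 were higher in the second OMP library, for instance alas2 at 120 and 1384 RPM, whereas gnrh3 was higher in the first.

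gnrh2 was on the other side of the comparison. It was read in every library, with 1387 and 643 reads in OMP, or 12.8 and 5.77 RPM, against 33892 and 8657 reads in TRPC2, or 384 and 103 RPM. Means were 9.31 ± 5.0 RPM in OMP and 243 ± 199 RPM in TRPC2 (SD, n = 2 each). The class ranges did not overlap, since the lowest TRPC2 library was 8.0 times the highest OMP library. The highest TRPC2 library was 66.5 times the lowest OMP library. By means, TRPC2 was 26.1 times OMP. The log2 fold change fitted by edgeR, OMP over TRPC2, was -5.47, where the median over all 21026 tested genes was 0.49.

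**Figure D1:**
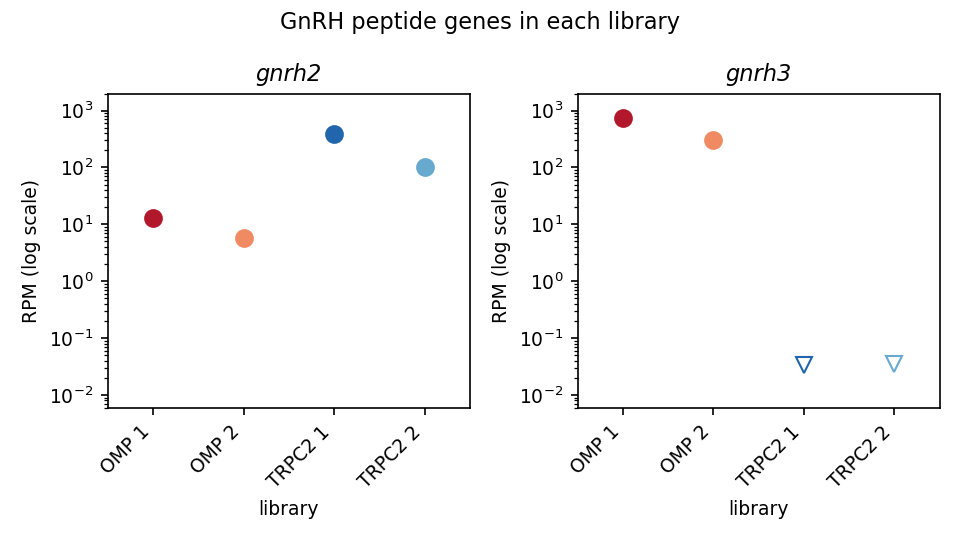
Levels of gnrh2 (left) and gnrh3 (right) in RPM on a log axis, 1 point per library, with OMP in red and TRPC2 in blue. Open triangles stand at 3 reads for libraries with no read. gnrh2 was at 12.8 and 5.77 RPM in OMP and 384 and 103 RPM in TRPC2, and gnrh3 at 750 and 300 RPM in OMP with no read in TRPC2.

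Both TRPC2 libraries were above both OMP libraries for 1628 genes, or 5.61% of all genes, and OMP was above TRPC2 in every pairing of libraries for 53.3%. Since the rule used this contrast, the place of gnrh2 among the first and of gnrh3 among the second is only a description. The lowest TRPC2 level over the highest OMP level was as large as that of gnrh2, or larger, for 94 genes including gnrh2, or 0.324% of all genes. Of the 921 genes at a TRPC2 mean of at least 100 RPM, 17 including gnrh2 had a ratio of means as large as that of gnrh2.

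The make-up of the pair within a library does not depend on how libraries were scaled. In OMP, gnrh2 gave 1.68% of the reads of the pair in the first library (95% Wilson interval 1.60% to 1.77%) and 1.89% in the second (1.75% to 2.04%). In TRPC2 it gave all 33892 and all 8657 reads, and a count of 0 for gnrh3 allows it a share of up to 0.00885% and 0.0347%. The intervals of the OMP libraries overlapped. All these intervals cover counting error only, as amplified reads are not independent molecules. The pair was chosen for going in opposite directions between the classes, so the gap in its make-up between OMP and TRPC2 is only a description. Since neither TRPC2 library held a gnrh3 read beside 33892 and 8657 gnrh2 reads, counting did not pass gnrh2 reads on to gnrh3 there. The opposite passage, from gnrh3 to gnrh2 in OMP, was not tested.

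The ratio between libraries of 1 class played no part in how the genes were chosen. By the paper, the samples of a class also differed in the number of sorted cells. The part of cell number in these ratios was not tested. Over the 11025 genes at an OMP mean of at least 5 RPM, the first OMP library had a median of 1.01 times the RPM of the second. gnrh2 had 2.23 times and gnrh3 2.50 times, and a ratio at least this large was found for 1.5% and 0.898% of these genes. The ciliated OSN markers ompa and ompb were at 0.574 and 0.849 times. Likewise cnga4, at 104 and 170 RPM, and gnal2, at 10.4 and 11.9 RPM, were lower in the first OMP library. The other ciliated markers, adcy3b, at 15.04 and 11.4 RPM, and gnal, at 118 and 102 RPM, were higher in it, as gnrh3 was, but by a smaller ratio. In TRPC2 the first library had 3.74 times the gnrh2 level of the second, where the median over 8264 genes at a TRPC2 mean of at least 5 RPM was 1.11 and 12.4% of genes had a ratio this large. The pigment cell gene gch2, an enzyme of pteridine synthesis, had the opposite order, at 0.283 times. The microvillous gene s100z, a calcium-binding protein, was at 1.49 times and trpc2b at 0.559 times. trpc2a had the order of gnrh2 and a wider gap, at 11.4 and 0.21 RPM in TRPC2, so class markers lay on either side of gnrh2 in this ratio.

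**Figure D2:**
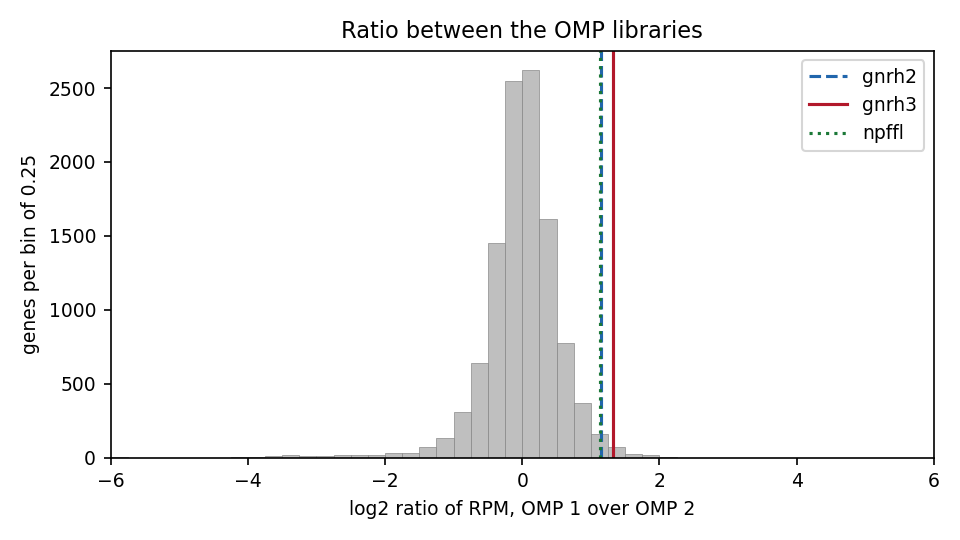
Histogram of the log2 ratio of RPM in the first over the second OMP library for 11025 genes at an OMP mean of at least 5 RPM, in bins of 0.25, with 3 genes beyond 6 drawn in the outermost bins. Vertical lines mark gnrh2, gnrh3 and npffl, whose first library was 2.23, 2.50 and 2.20 times the second, to the right of most genes.

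The 5 genes named for terminal nerve neurons of fish were examined beside gnrh3. One of them, npffl, had slightly more reads than gnrh3 in both OMP libraries, with no correction for gene length. npffl encodes a precursor of neuropeptide FF-like peptides and is known in terminal nerve cells of zebrafish. It was at 786 and 356 RPM in OMP, against 3.77 and 0.01 RPM in TRPC2. For every gnrh3 read there were 1.05 and 1.19 npffl reads in the OMP libraries. The ratio between the OMP libraries was 2.20, as large or larger in 1.56% of genes. Unlike gnrh3, npffl had reads in TRPC2, 333 in the first library and 1 in the second. It still passed the filter on low counts through its OMP reads, so its p-values are a description only. Its log2 fold change, OMP over TRPC2, was 7.49 (SE 2.31), against 14.5 without the first TRPC2 library and 6.49 without the second. With all libraries npffl had an edgeR adjusted p of 0.105, so it did not pass 0.05 although each OMP library was above each TRPC2 library. It passed 0.05 in 8 of 13 alternatives, among them each single library left out, and over the 13 the adjusted p ranged from 2.08e-12 to 0.17.

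The other 4 were less alike. isl1, a LIM homeodomain factor of several neuron types, was at 79.4 and 63.6 RPM in OMP, against 0 and 6.68 RPM in TRPC2 (log2 fold change 3.59, SE 2.33, adjusted p = 0.387 from edgeR). Its log2 fold change was 2.46 without the first TRPC2 library and 15.7 without the second, and 6.43 with a block by replicate number (adjusted p = 0.011 from edgeR). npy, the neuropeptide Y gene, was at 2.17 and 1.34 RPM in OMP and 0.03 and 0.01 RPM in TRPC2 (log2 fold change 5.42, SE 1.43, adjusted p = 0.0759 from edgeR). Both isl1 and npy passed the filter on low counts through their OMP reads, so their p-values are a description only. th, the tyrosine hydroxylase of dopamine synthesis, was at 1.97 and 0.04 RPM in OMP, with no read in TRPC2. kiss1ra, a kisspeptin receptor, had no read in any library. OMP was above TRPC2 in every pairing of libraries for 4 of these 5 genes, against 53.3% of all genes.

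**Figure D3:**
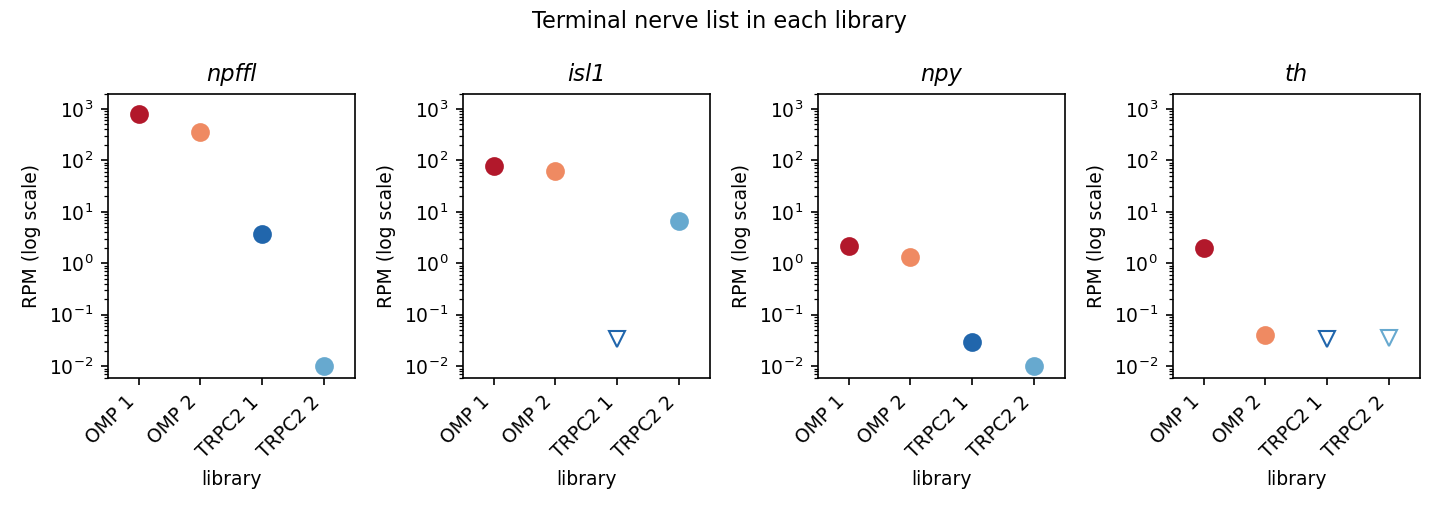
RPM on a log axis of npffl, isl1, npy and th, 1 point per library, with OMP in red, TRPC2 in blue and open triangles at 3 reads where there was no read. npffl stood at 786 and 356 RPM in OMP and 3.77 and 0.01 RPM in TRPC2, in the same order as gnrh3 in OMP, and th had reads in OMP alone.

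Markers of brain glia were higher in OMP, as gnrh3 was, and those of brain neurons were mixed. The summed level of 19 genes of brain neurons and glia was 2059 and 2154 RPM in OMP, against 409 and 345 RPM in TRPC2, and 13 of the 19, or 68.4%, were higher in both OMP libraries, against 53.3% of all genes. The glial genes fabp7a, at 852 and 866 RPM in OMP and 56.4 and 36.7 RPM in TRPC2, and slc1a2b, at 553 and 699 RPM in OMP and 39.8 and 49.1 RPM in TRPC2, made up most of it in OMP but not in TRPC2. Some genes of forebrain neurons and their precursors overlapped between the classes, with neurod6b at 19.9 and 8.34 RPM in OMP and 11.6 and 131 RPM in TRPC2, and foxg1a at 74.0 and 71.2 RPM in OMP and 126 and 38.7 RPM in TRPC2. The myelin gene mbpa was at 0 in every library and the vesicular glutamate transporter gene slc17a7a at 0.02 and 0.09 RPM in OMP and 0 in TRPC2. The sum did not share the order of gnrh3 within OMP, but the neuron genes neurod6b, eomesa (21.3 and 11.8 RPM), tbr1b (63.5 and 41.4 RPM), gad1b (13.3 and 2.91 RPM) and gad2 (18.6 and 3.49 RPM) did. Other neuron genes of the list did not, with slc17a6b at 7.24 and 9.18 RPM and emx1 at 18.6 and 21.9 RPM in OMP, and foxg1a was nearly level. The part of brain genes in the level of gnrh3 was not tested.

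For gnrh2 the same was done with 8 midbrain genes, those matched by symbol of 12 asked for. The engrailed genes en1a, en1b, en2a and en2b were not matched. Their sum was 80.9 and 59.6 RPM in OMP and 54.5 and 146 RPM in TRPC2, with 0 of 8 higher in both TRPC2 libraries, against 5.61% of all genes, and 5 of 8 in both OMP libraries, against 53.3%. The midbrain gene barhl2 leaned to TRPC2, at 38.8 and 23.0 RPM in OMP and 38.1 and 123 RPM in TRPC2, and pax2a was at 5.55 and 7.81 RPM in OMP and 3.41 and 21.8 RPM in TRPC2, both with more reads in the TRPC2 library that had less gnrh2. The midbrain regulators dmbx1a, dmbx1b and tal2 had no read in either TRPC2 library and were at 2.35 and 2.87, 0.71 and 0.46, and 8.02 and 6.62 RPM in OMP. Pituitary genes, 11 in all, summed to 7.72 and 6.95 RPM in OMP and 2.28 and 0.02 RPM in TRPC2. Of these, 3 were higher in both OMP libraries, or 27.3%, against 53.3% of all genes, and 0 in both TRPC2 libraries. No TRPC2 read was found for 7 of the 11, or 63.6%, against 29% of all genes. Several of the 7 were little read in OMP as well, with gh1 at 0 and 0.02 RPM and lhb at 0.04 and 0 RPM. The gonadotropin gene fshb was at 0 in every library. The pigment cell genes were higher in both TRPC2 libraries for 6 of 13, or 46.2%, against 5.61% of all genes. Another 3, or 23.1%, were higher in both OMP libraries, against 53.3% of all genes, with tyrp1b and dct lacking a TRPC2 read. Of the 6 on the TRPC2 side, pmela was higher in the TRPC2 library that had more gnrh2, at 13.12 and 10.95 RPM in TRPC2, and the other 5 were lower in it. The part of pigment cells in the gnrh2 level was not tested.

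Receptors for GnRH were barely read in either class. gnrhr2 had 46 and 73 reads in OMP, or 0.43 and 0.66 RPM, against 0 in both TRPC2 libraries, which makes the OMP mean of 0.545 ± 0.163 RPM (SD, n = 2) at least 15.7-fold higher. Its adjusted p was 0.0721 from edgeR, and it passed the filter through its OMP reads alone. gnrhr1 was at 0.02 and 0.29 RPM in OMP and 0.05 and 0 RPM in TRPC2. gnrhr4 was at 0.02 and 0.05 RPM in OMP and 0 in TRPC2. Another receptor row, GNRHR_(4_of_4), was at 0.15 and 0.01 RPM in OMP and 0.01 and 0 RPM in TRPC2. All 4 were therefore under 1 RPM in each library, with no correction for gene length.

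The kisspeptin and neurokinin B genes, which act upstream of GnRH neurons in mammals, were likewise little read, with all but tac3b under 1 RPM in every library. Of 8 genes, the ligand tac3b had the most reads, at 1.19 and 0.94 RPM in OMP and 0 and 1.59 RPM in TRPC2. The receptor kiss1rb was at 0.32 and 0.28 RPM in OMP and 0 and 0.76 RPM in TRPC2, and tacr3l at 0.41 and 0.12 RPM in OMP and 0.12 and 0.01 RPM in TRPC2. tac3a was at 0.12 and 0.13 RPM in OMP with no read in TRPC2. kiss1 was at 0 and 0.13 RPM in OMP and 0 in TRPC2, kiss2 at 0.06 and 0 RPM in OMP and 0 and 0.01 RPM in TRPC2, and tacr3a had no read in any library. Only tac3a, with 13 and 15 reads in OMP, had classes that did not overlap. OMP was thus above TRPC2 in every pairing for 12.5% of the list, against 53.3% of all genes. The direction of kiss1rb rested on single libraries: edgeR called it higher in TRPC2 without the first TRPC2 library (adjusted p = 0.0453) and higher in OMP without the second (adjusted p = 0.0429).

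Around the pair, 6 lists held 116 genes in the files, of which 90 passed the filter on low counts. edgeR called 0 of the 90 at an adjusted p under 0.05, where it called 0 of all 21026 tested genes, or 0%. At an unadjusted p under 0.05, 26 of the 90 were higher in OMP and 8 in TRPC2, or 28.9% and 8.89%, where 23.3% and 7.18% of all tested genes were. Many of the 26 had no TRPC2 read and passed the filter through their OMP reads alone. These were gnrhr2, tac3a, fgf8a, sst1.1, galn, penka, pdyn, pomcb, vip, cckb, crhb, nts and uts1. Such genes could only come out higher in OMP, so these shares are a description. The DESeq2 and limma calls given next include such genes too, fgf8a and nts among them. On the same counts DESeq2 called 19 higher in OMP and 8 in TRPC2, where it called 12.9% and 5.67% of all tested genes, and limma on log2(RPM + 0.5) called 21 and 1, where it called 23.5% and 0.785%. Over all 116 genes, OMP was above TRPC2 in every pairing of libraries for 71, or 61.2%, against 53.3% of all genes, and the opposite held for 9, or 7.76%, against 5.61%. The count of edgeR calls rested on single libraries, in the lists as over all genes. With any library left out, the set of tested genes also changed and 1 class held a single library. The lists are therefore not compared with all genes in those fits. The median OMP minus TRPC2 difference in log2(RPM + 0.5) was 0.79 over the 116 genes and 0.46 over all genes.

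**Figure D4:**
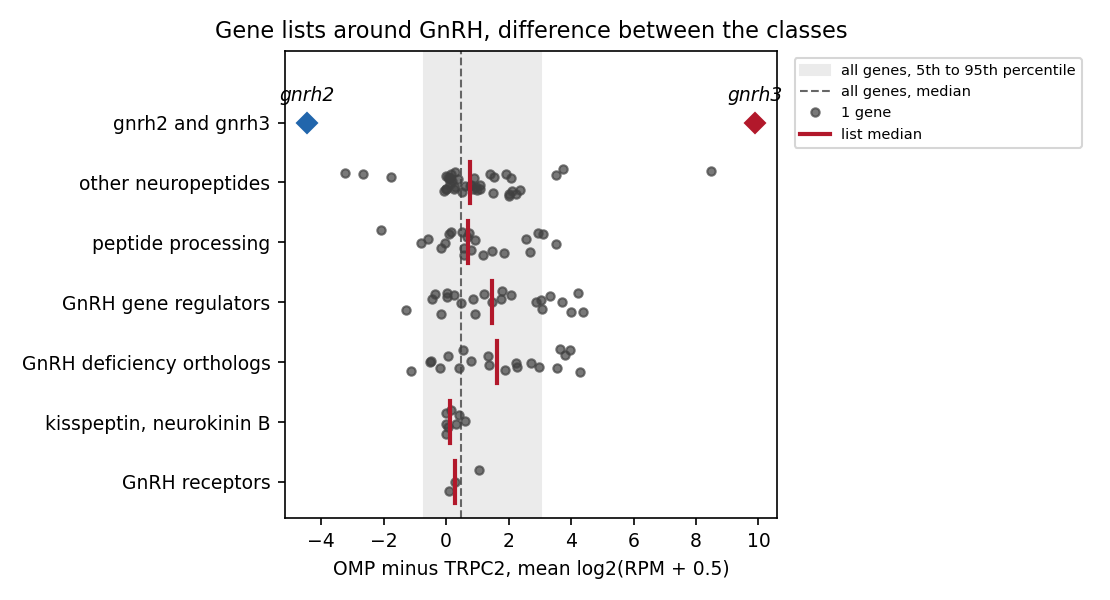
Difference of OMP minus TRPC2 in mean log2(RPM + 0.5), 1 point per gene, for the 6 lists and for gnrh2 and gnrh3. Red bars are list medians, the grey band spans the 5th to the 95th percentile of all genes and the dashed line is their median of 0.46. gnrh2 and gnrh3 lie outside the band on opposite sides, and the 1 list gene near gnrh3 is npffl.

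Of 40 other neuropeptide genes, 27 were higher in both OMP libraries and 2 in both TRPC2 libraries, or 67.5% and 5%, against 53.3% and 5.61% of all genes. No TRPC2 read was found for 23 of the 40, or 57.5%, against 29% of all genes. Many of the 23 were little read in OMP as well, and 3 had no read in any library. Those of smallest p on the OMP side, named next, had few reads and none in TRPC2. Like npffl, they passed the filter through their OMP reads, so their p-values only chose which genes are named. The neurotensin gene nts was at 5.02 and 7.56 RPM in OMP, at least 181-fold higher than the TRPC2 limit. The prodynorphin gene pdyn was at 2.43 and 1.39 RPM, the cholecystokinin gene cckb at 1.68 and 1.33 RPM and vip at 0.45 and 0.48 RPM in OMP, each with no read in TRPC2.

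The 2 neuropeptide genes on the side of gnrh2 were nmba and agrp2. nmba, a neuromedin B gene, was at 9.15 and 8.17 RPM in OMP and 75.6 and 42.9 RPM in TRPC2 (log2 fold change -3.55, SE 0.448, adjusted p = 0.0721 from edgeR). It passed 0.05 in 6 of 13 alternatives, over which the adjusted p ranged from 4.86e-09 to 0.231. agrp2, an agouti-related peptide gene, was at 1.52 and 0.89 RPM in OMP and 5.48 and 41.4 RPM in TRPC2 (log2 fold change -5.11, SE 1.24, adjusted p = 0.0721 from edgeR). Its order within TRPC2 was the opposite of that of gnrh2, while that of nmba was the same. The PACAP gene adcyap1b had overlapping classes, at 249 and 242 RPM in OMP and 330 and 203 RPM in TRPC2 (log2 fold change -0.90, SE 0.364, adjusted p = 0.186 from edgeR).

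Genes of the machinery that turns a prohormone into an amidated peptide had reads in both classes, all 22 of the list in every library. Some had few, with 7 reads for pcsk1 and 9 for pcsk2 in the second TRPC2 library. The convertase genes pcsk1 and pcsk2, which cut prohormones, were at 6.42 and 4.17 and at 4.67 and 1.99 RPM in OMP, against 6.94 and 0.08 and 1.13 and 0.11 RPM in TRPC2. The carboxypeptidase gene cpe, which trims the cut ends, was at 223 and 164 RPM in OMP and 159 and 103 RPM in TRPC2, but its edgeR log2 fold change was -0.21, so its direction depends on the scaling. The amidating enzyme gene pam was at 73.2 and 68.9 RPM in OMP and 33.2 and 28.5 RPM in TRPC2. qpct, a glutaminyl cyclase that forms the pyroglutamate end of peptides such as GnRH, was at 11.6 and 9.04 RPM in OMP and 0.68 and 2.28 RPM in TRPC2. None of these 5 had an unadjusted p under 0.05 in edgeR.

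Genes of dense-core granules lay on either side. chgb, a chromogranin gene, was at 3.86 and 1.92 RPM in OMP and 25.4 and 6.89 RPM in TRPC2 (log2 fold change -3.25, SE 0.922, adjusted p = 0.088 from edgeR). furinb, a convertase of the secretory pathway, was at 22.8 and 22.5 RPM in OMP and 48.6 and 33.4 RPM in TRPC2, and scg5, the chaperone of PCSK2, at 14.7 and 11.8 RPM in OMP and 23.5 and 17.0 RPM in TRPC2. ptprnb, a granule membrane protein, was at 13.6 and 14.7 RPM in OMP and 1.23 and 0.45 RPM in TRPC2. The granule genes read most were scg2b, at 322 and 367 RPM in OMP and 571 and 263 RPM in TRPC2, chga, at 239 and 234 RPM in OMP and 331 and 147 RPM in TRPC2, and pcsk1nl, an inhibitor of PCSK1, at 201 and 170 RPM in OMP and 232 and 65.8 RPM in TRPC2. For each of these 3 the OMP levels lay between the TRPC2 levels. The first TRPC2 library was the higher one for every gene named in this paragraph, as for gnrh2. The median ratio of the first to the second TRPC2 library over 8264 genes was also above 1, at 1.11.

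Zebrafish orthologs of genes mutated in human congenital GnRH deficiency were higher in both OMP libraries for 14 of 20, or 70%, and in both TRPC2 libraries for 2, or 10%, against 53.3% and 5.61% of all genes. The growth factor genes fgf8a and fgf8b were at 6.50 and 6.61 and at 2.29 and 5.49 RPM in OMP, against 0 and 0 and 0.02 and 0.02 RPM in TRPC2, and their receptor fgfr1a was at 22.1 and 23.5 RPM in OMP and 1.70 and 0.14 RPM in TRPC2. hs6st1a, a heparan sulfate sulfotransferase that acts in FGF signalling, was at 2.78 and 2.93 RPM in OMP and 0.03 and 0 RPM in TRPC2. The Kallmann syndrome ortholog kal1b was at 45.2 and 50.1 RPM in OMP and 17.3 and 5.05 RPM in TRPC2, while its paralog kal1a was at 8.62 and 10.7 RPM in OMP and 10.8 and 17.4 RPM in TRPC2. sox10, a neural crest factor, was the other gene higher in both TRPC2 libraries, at 11.3 and 15.4 RPM in OMP and 17.6 and 48.6 RPM in TRPC2. The chromatin remodeller chd7 was at 111 and 71.1 RPM in OMP and 16.5 and 34.2 RPM in TRPC2, and the phosphatase gene dusp6 at 69.2 and 57.8 RPM in OMP and 49.5 and 26.9 RPM in TRPC2.

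Transcription factors that act on the GnRH gene in mammals were higher in both OMP libraries for 14 of 23, or 60.9%, and in both TRPC2 libraries for 2, or 8.70%, near the 53.3% and 5.61% of all genes. The smallest unadjusted p belonged to tfap2a, an AP-2 factor, at 59.2 and 52.2 RPM in OMP and 3.47 and 2.54 RPM in TRPC2 (log2 fold change 3.43, SE 0.444, adjusted p = 0.0721 from edgeR). otx1b was at 82.3 and 72.4 RPM in OMP and 17.1 and 18.9 RPM in TRPC2, and dlx2a at 13.5 and 10.8 RPM in OMP and 1.43 and 1.04 RPM in TRPC2. The 2 on the side of gnrh2 were nhlh2, a basic helix-loop-helix factor, and pou2f1b, the octamer-binding factor. nhlh2 was at 98.3 and 79.9 RPM in OMP and 310 and 149 RPM in TRPC2 (log2 fold change -2.14, SE 0.457, adjusted p = 0.0721 from edgeR). pou2f1b was at 37.2 and 39.7 RPM in OMP and 48.7 and 56.7 RPM in TRPC2. The immediate early gene egr1, at 255 and 157 RPM in OMP and 182 and 41.6 RPM in TRPC2, overlapped between the classes, and meis1b was at 85.9 and 92.8 RPM in OMP and 78.6 and 52.2 RPM in TRPC2.

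The genes that flank each member in the RefSeq gene order of GRCz12tu, another build than the GRCz10 of the counts, were examined for reads that could run over from a neighbour. No annotated gene overlapped either member. Next to gnrh2, ptpra, a receptor tyrosine phosphatase, was at 19.1 and 10.1 RPM in OMP and 22.2 and 16.3 RPM in TRPC2, and beyond it idh3b at 49.7 and 68.6 RPM in OMP and 29.0 and 15.7 RPM in TRPC2. On the other side the nearest genes, gcnt4b.2 and gcnt4b.1, were not analysed here. Beyond them fam169ab was at 0.19 and 0.76 RPM in OMP and 0.38 and 0 RPM in TRPC2. p2rx4a, a purinergic channel, was at 2.05 and 1.69 RPM in OMP with no read in TRPC2. None of these 4 was higher by a like amount in TRPC2.

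Next to gnrh3, the DNA repair gene mgmt was at 10.4 and 8.82 RPM in OMP and 28.4 and 10.5 RPM in TRPC2. The nearest gene on the other side of gnrh3, LOC141378554, was not analysed here. bnip4 was at 20.0 and 24.6 RPM in OMP and 5.18 and 4.50 RPM in TRPC2, and ecd at 8.98 and 10.7 RPM in OMP and 3.47 and 2.34 RPM in TRPC2. smndc1, a splicing factor, was at 69.2 and 83.5 RPM in OMP and 89.2 and 91.5 RPM in TRPC2. si:ch211-248a14.8 was at 0.81 and 0.22 RPM in OMP and 0.11 and 0 RPM in TRPC2. All but the last had reads in both TRPC2 libraries, where gnrh3 had none.

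**Figure D5:**
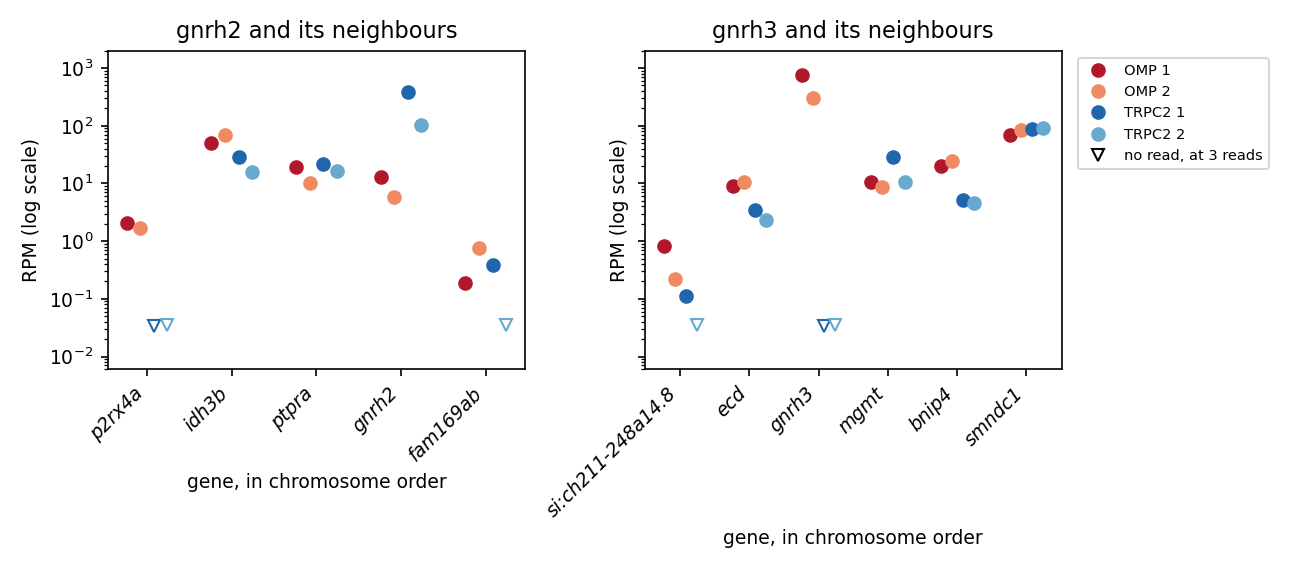
RPM on a log axis of gnrh2 (left) and gnrh3 (right) and of their annotated protein-coding neighbours in chromosome order, with OMP in red, TRPC2 in blue and open triangles at 3 reads where there was no read. None of the 4 measured neighbours of gnrh2 shows its gap between TRPC2 and OMP, and ecd, mgmt, bnip4 and smndc1 have reads in TRPC2 where gnrh3 has none.

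The genes with profiles most like the members were those with the smallest largest difference in log2(RPM + 0.5) over the 4 libraries. For gnrh2 the nearest was GALNTL6, a predicted glycosyltransferase, with a largest difference of 1.01. It was at 8.22 and 2.61 RPM in OMP and 255 and 55.5 RPM in TRPC2, so that it shared the order of gnrh2 within both classes. Next were gpd1b, a glycerol phosphate dehydrogenase (1.41), PTS, an enzyme of tetrahydrobiopterin synthesis (1.76), si:dkey-248g15.3 (1.91) and zgc:110224 (1.94). gpd1b and PTS were higher in the second TRPC2 library, unlike gnrh2.

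For gnrh3 the nearest profiles were less close. The collagen gene col1a1a had a largest difference of 1.77, at 380 and 494 RPM in OMP and 0 and 1.21 RPM in TRPC2. It was followed by the odorant receptors or111-11 (2.18) and or132-5 (2.34), cahz (2.47) and the keratin gene krt91 (2.60). Only or111-11 and cahz shared its lack of a read in both TRPC2 libraries. These 4 libraries give a likeness of profile, with no test.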

How the data were processed

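RNA of FAC sorted OSNs was measured in 4 libraries. STAR mapping to GRCz10 and VERSE counting were done by the authors, who deposited whole-number counts per gene symbol. They also deposited RPM, which are these counts over a larger total per library. Tool versions, the annotation and strandedness were not given in the sources used here. Nothing at hand says how the libraries of a class were kept apart beyond being biological replicates, so p-values measure the spread between libraries, which may be partly technical.

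Counts were compared with edgeR 4.0.16 (glmQLFit and glmQLFTest, TMM, default filterByExpr, class as the only term, Benjamini-Hochberg over 21026 genes) run in R 4.3.3, and fold changes have OMP on top. The SE given with an edgeR fold change was derived from its test. It is the absolute log2 fold change over the square root of the quasi-likelihood F statistic. A fitted fold change for a gene with no TRPC2 read depends on a prior count, so a bound of 3 reads per library was used. Alternatives were DESeq2 1.42.0, limma 3.58.1, other scalings and filters, a block by replicate number and the omission of each library. With 2 libraries a class the depth does not limit gnrh2 or gnrh3 in OMP, which had at least 643 reads.

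Genes and lists were chosen with earlier results of these data known. The genes named are gnrh2, gnrh3, all receptor, kisspeptin and terminal nerve genes, per other list the 5 with the smallest p and the 3 read most, 3 neighbours on each side and the 5 nearest profiles. The neighbours gcnt4b.1, gcnt4b.2 and LOC141378554 were not analysed here. GNRHR_(4_of_4), agrp2, kal1a, pcsk1, pcsk2, cpe, pam, qpct, galn, gad1b, gad2, the globin, heme and carbonic anhydrase genes and the marker genes named were chosen after their values were seen. Of 125 genes asked for in the 6 lists, 116 were matched by symbol. Among the marker lists, 6 of 9 ciliated OSN, 8 of 12 midbrain and 10 of 14 red blood cell genes were matched. The other marker lists were matched in full.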

Additional observations from a re-analysis of the deposited data

How the results depend on the processing

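The direction of gnrh2 and gnrh3 held under each of the 13 alternatives tried. Both were chosen for this direction and their classes did not overlap, so the alternatives are no test of it. The log2 fold change of gnrh2 was -5.47, and ranged from -6.13 to -4.43 when each library was left out. That of gnrh3, 18.3, was 17.0 with DESeq2, 9.89 and 12.2 with limma on log2(RPM + 0.5) and log2(RPM + 0.1), and 17.4 to 18.7 when each library was left out, since it depends on the prior count or the pseudocount. No gene was called by edgeR with either other scaling, either other filter or without red blood cell genes. Over all genes DESeq2 called 3909, limma 5110 and 5525 with pseudocounts of 0.5 and 0.1, and 110 to 11665 were called with a library left out. Of the genes in the 6 lists, DESeq2 called 27, limma 22 and 28, and 1 to 57 were called with a library left out. The highest counts came without a TRPC2 library. A class with 1 library left is given the spread of the other class. The set of tested genes also changed with a library left out, so these counts give no share of the genes tested in the main fit. The replicate block called 597 genes, 9 of them in the lists, and gave -5.31 for gnrh2 and 18.4 for gnrh3. Libraries share only the numbers 1 and 2. The correlation of deviations between libraries of 1 number was -0.000531, so no shared deviation was seen across genes. This cannot exclude a pairing, since the classes also differ in amplification and in other cells. The median log2 fold change of all tested genes was 0.49 under TMM, 0.36 under the size factors of DESeq2 and 1.13 under totals alone. The cause was not tested. The 21 other genes put through these alternatives by a choice made after seeing the data kept their direction. Among genes outside these, the log2 fold change of kiss1rb was -2.29 without the first TRPC2 library and 7.78 without the second. Several genes changed sign between edgeR and limma on log2(RPM + 0.5). Among them were cpe and tac3b (-0.21 and -0.40 in edgeR, 0.58 and 0.61 in limma). The same held for dusp6 and meis1b (-0.04 and -0.33 in edgeR, 0.79 and 0.48 in limma), although both were higher in both OMP libraries by RPM. It also held for pcsk1, pcsk1nl and chga. Ratios of gnrh3 to gnrh2 per kb of transcript were not run, as transcript lengths were not used here, so levels of the pair were not compared with each other.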

Other observations

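The excess of gnrh3 and npffl in the first OMP library was shared by some other genes of neurons outside the OSN classes, which were picked after their values were seen. The galanin gene galn was at 24.3 and 0.83 RPM in OMP, a ratio of 29.2, with no read in TRPC2. The GABA synthesis genes gad1b and gad2 were at 13.3 and 2.91 RPM and at 18.6 and 3.49 RPM in OMP, against 0.17 and 2.23 RPM and 0.09 and 1.48 RPM in TRPC2. Of 11025 genes at an OMP mean of at least 5 RPM, 7 had a ratio between the OMP libraries at least as large as that of gad1b, 4.58. These 7 include gad1b, gad2 and galn themselves. Other neuron genes had the opposite order in OMP, among them nts at 5.02 and 7.56 RPM, slc17a6b, a vesicular glutamate transporter gene, at 7.24 and 9.18 RPM, and adcyap1a at 0.71 and 2.04 RPM.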
